A study of Mus musculus with 10 samples.

Results

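The aquaporin family was followed through livers of mice that lack both macroH2A genes and through wild-type livers. Members were the probe sets annotated with exactly 1 gene symbol that was Aqp1, Aqp3, Aqp4, Aqp5, Aqp7, Aqp8, Aqp9, Aqp11 or Aqp12. All 9 genes were found, each with 1 probe set, out of 22180 genes that had at least 1 such probe set; the table held 41345 probe sets. The wild-type group held 5 livers and the double knockout group (macroH2A1 macroH2A2) held 5, each on 1 array. All mice in both groups were males of the strain 129/S6 (taconic), aged 2 months, kept on low fat chow, fasted overnight for about 16 h and killed between 9 and 10 in the morning. The labels describe the double knockout by genotype only, with no tissue restriction or driver named. Values are log2 expression levels, so a difference of 1 is a doubling. The labels do not say in so many words that every array came from its own animal, so p-values measure the spread between these arrays, which may be partly technical.

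Aquaporins are membrane proteins that assemble as tetramers, with a pore in every subunit. The classical members conduct mainly water, the aquaglyceroporins (Aqp3, Aqp7 and Aqp9) also conduct glycerol and other small solutes, and Aqp11 and Aqp12 form a more distant branch found mostly in intracellular membranes. In liver, Aqp9 is known from the hepatocyte membrane that faces the blood, where it takes up glycerol during fasting. Aqp8 is known from hepatocyte vesicles, the bile canaliculus and mitochondria, Aqp11 from the endoplasmic reticulum, and Aqp1 from endothelium and bile ducts.

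The family was chosen by gene name, but it was selected on a measured value too, since Aqp8 was already known to be called lower in double knockout livers of these same arrays. The differences between genotypes below are therefore descriptions of the members, and their adjusted p-values, taken from a limma fit of the whole table of 25335 probe sets with Benjamini-Hochberg adjustment, support nothing further. Being called means an adjusted p under 0.05. By this rule 0.884% of all tested probe sets were called in either direction and 0.553% were called lower. Of the 9 aquaporins 1 was called, Aqp8, and it was lower. Lower means in double knockout livers were found for 7 of the 9, with a median difference of -0.12 on the log2 scale, or -0.09 over the other 8. Among all tested probe sets 51.5% had lower means and the median difference was -0.003. An unadjusted p under 0.05 was found for 3 of the 9 aquaporins (Aqp7, Aqp8 and Aqp11) and for 15.1% of all tested probe sets, the share beside which such counts are to be read.

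Array medians lay between 6.43 and 6.46, correlations between arrays between 0.989 and 0.995, and 0 pairs of arrays were identical. The 95th percentile of 1108 olfactory receptor probe sets, 6.54, served as a guide to background, since liver is not known to use most of these genes. Hepatocyte markers identified the tissue, with list means per array of 13.16 to 13.24 in wild-type and 13.15 to 13.19 in double knockout livers. The Macroh2a1 probe set was at 9.51 to 9.66 in wild-type and 9.02 to 9.18 in double knockout arrays, while Macroh2a2 stood below the guide, at 6.32 and 6.12. Whether either probe set overlaps the deleted sequence is not stated in the labels, so they check the genotypes only in part.

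Aqp8, a water channel that also passes hydrogen peroxide and ammonia, stood in wild-type replicates 1 to 5 at 10.19, 9.64, 9.17, 9.40 and 9.35. In double knockout replicates 1 to 5 it stood at 8.96, 8.65, 8.85, 8.74 and 8.80. The lowest wild-type array lay above the highest double knockout array, so the groups did not overlap; the groups were apart in the lower direction for 2.15% of all tested probe sets. The means were 9.55 ± 0.40 and 8.80 ± 0.12 (SD, n = 5 each), a log2 difference of -0.75 (SE 0.15, 95% interval -1.09 to -0.41, limma adjusted p = 0.0475), or 1.68-fold lower. Only 27 tested probe sets, Aqp8 included, had differences at least as far below 0.

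The wild-type arrays were spread widely for Aqp8, and wild-type replicate 1 stood highest. The within-group SD of Aqp8, 0.29, was larger than that of 97.6% of tested probe sets above the background guide. Without wild-type replicate 1 the log2 difference was -0.59 with a smaller SE of 0.09 (limma adjusted p = 0.0198). The call ended in the 8 fits that left out wild-type replicate 2, 4 or 5 or any single double knockout array, where differences ranged from -0.80 to -0.71 and limma adjusted p from 0.0544 to 0.123. Without wild-type replicate 3 it was -0.84 (limma adjusted p = 0.037). In these 10 fits the sign did not change.

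**Figure D1:**
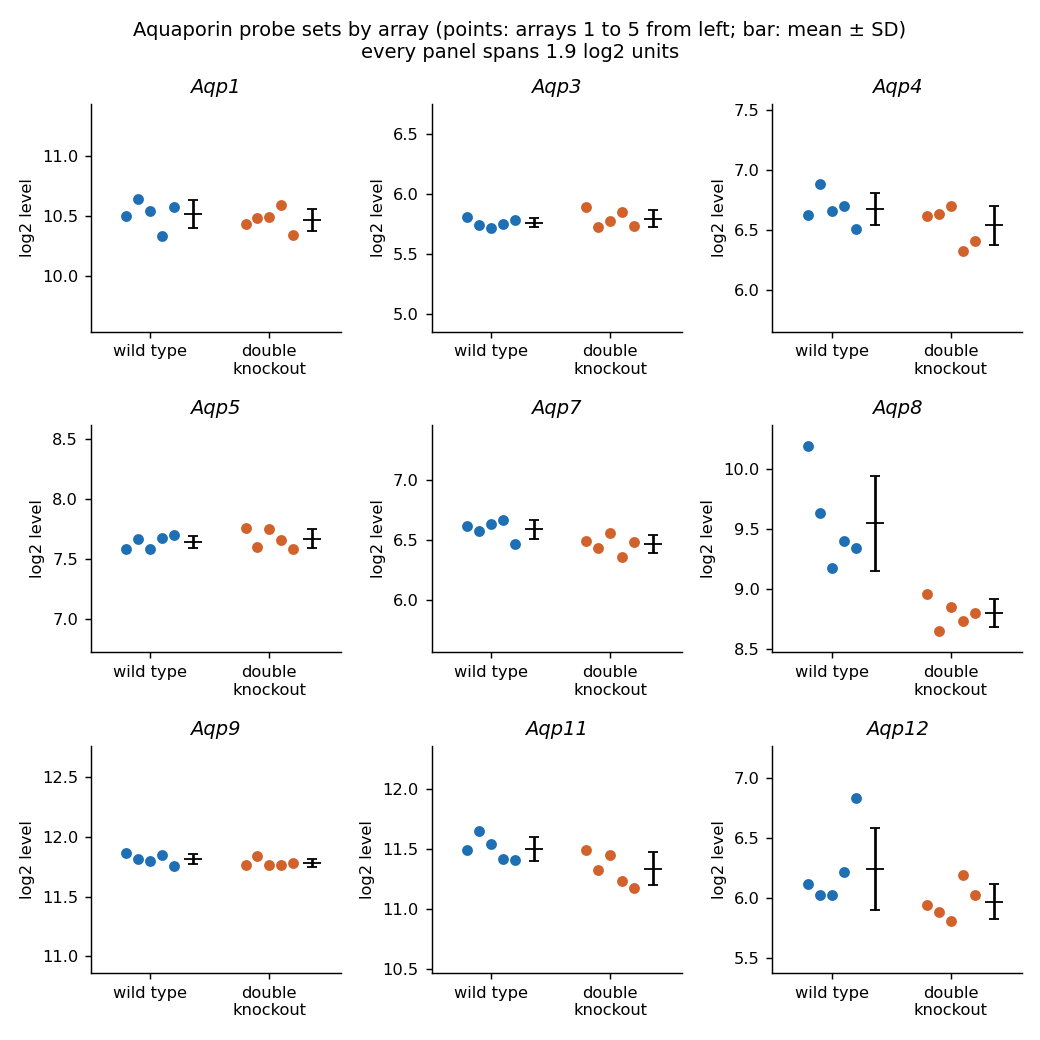
Log2 level of each aquaporin probe set (vertical axis) in the 5 wild-type (blue) and 5 double knockout (orange) arrays, replicates 1 to 5 from left to right, with the group mean and SD as a bar; every panel spans the same log2 range. For Aqp8 the double knockout arrays, at 8.65 to 8.96, lie below the wild-type arrays, at 9.17 to 10.19, while the groups of the other 8 genes overlap.

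**Figure D2:**
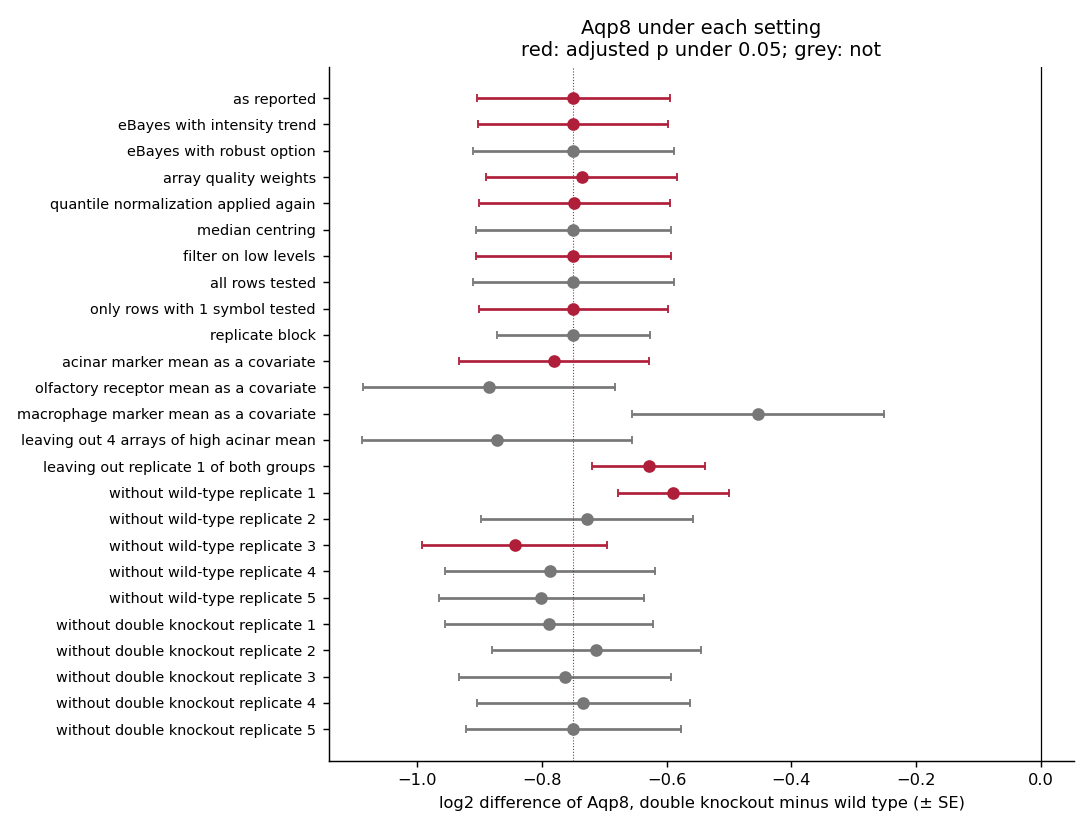
Log2 difference of Aqp8, double knockout minus wild type, with its SE (horizontal axis), as reported and under each of 24 other settings; red marks an adjusted p under 0.05. All estimates lie below 0, from -0.88 to -0.45, and 9 of the 24 settings keep the call.

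Pancreatic acinar cells are another site where Aqp8 is expressed, and acinar transcripts varied strongly between these liver samples. The mean level of 12 acinar markers was 5.98, 6.07, 5.93, 8.99 and 10.04 in wild-type replicates 1 to 5. It was 7.93, 8.21, 5.97, 6.50 and 6.03 in double knockout replicates 1 to 5. The arrays thus formed a set of 6 at or below 6.50 and a set of 4 at or above 7.93, with both genotypes in each set. Cpa1, carboxypeptidase A1, followed the same order of sets, at 7.05 to 8.06 in the lower set and at 10.96 to 12.76 in the higher set; Pnlip, pancreatic lipase, had no named probe set here and was not used. Means of 9 of the 12 markers were lower in the double knockout group, the median difference was -0.62, and 0 were called by limma, with 0 at an unadjusted p under 0.05. Among all tested probe sets 51.5% had lower means, 0.884% were called and 15.1% had an unadjusted p under 0.05.

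Arrays with much acinar signal held neither the highest nor the lowest Aqp8 values among wild-type livers. These arrays, replicates 4 and 5, had Aqp8 at 9.40 and 9.35, between replicate 3 at 9.17 and replicates 1 and 2 at 10.19 and 9.64. In double knockout livers the arrays with the most acinar signal, replicates 1 and 2, held the highest and the lowest Aqp8 value, 8.96 and 8.65. Because the arrays fell into separate sets, no correlation was taken over all 10. Within the 6 arrays of the lower set Pearson's r of Aqp8 with the acinar mean was -0.39 (exact permutation p = 0.431, adjusted 0.574 over 4 relations, two-sided) and Spearman's rho was -0.37 (exact permutation p = 0.497, adjusted 0.663). Without the 2 arrays farthest from the median acinar mean r was 0.02, so the value rested on those arrays. These 6 arrays hold both genotypes, and on deviations from the group means r was -0.03 (permutation p = 0.969, adjusted 0.969) and rho -0.37 (permutation p = 0.497, adjusted 0.663). Deviations were permuted across genotypes, so these p-values are approximate. With the acinar mean as a covariate over all 10 arrays, the Aqp8 difference was -0.78 (SE 0.15, limma adjusted p = 0.0446). Without the 4 arrays of the higher set, leaving 3 arrays per group, it was -0.87 (SE 0.22, limma adjusted p = 0.176), so the call ended and the difference was no smaller.

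**Figure D3:**
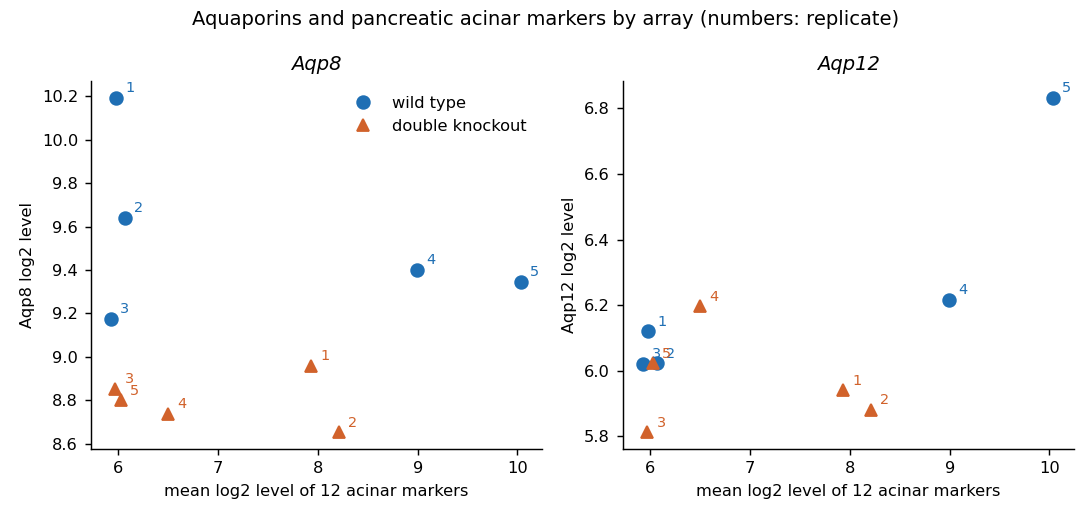
Log2 levels of Aqp8 (left) and Aqp12 (right) on the vertical axes against the mean log2 level of 12 pancreatic acinar markers on the horizontal axes, for each wild-type (blue circles) and double knockout (orange triangles) array, numbered by replicate. Aqp8 is lower in every double knockout array than in any wild-type array, so the genotypes are necessarily apart within each acinar set too. Aqp12 is highest, at 6.83, in wild-type replicate 5, the array with the highest acinar mean of 10.04.

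Of 12 macrophage markers 2 were called higher in double knockout livers, the scavenger receptors Cd163 and Marco, and 10 were not called. The means of all 12 were higher in that group, the median difference was 0.22, and 8 had an unadjusted p under 0.05. Among all tested probe sets 0.332% were called higher, 12276 of 25335 had higher means and 15.1% had an unadjusted p under 0.05. Marco lost its call in 8 of the 10 fits without an array (limma adjusted p up to 0.118) and in 7 of 14 other alternatives, and Cd163 in 4 of 10 (limma adjusted p up to 0.087) and 5 of 14. The list means per array ranged from 8.81 to 9.15 in wild-type and from 9.06 to 9.39 in double knockout livers. All 12 markers lay above the background guide. With this mean as a covariate, an alternative chosen after seeing the data, the Aqp8 difference was -0.45 (SE 0.20, limma adjusted p = 0.421). The calls over all tested probe sets were 23 in this fit and 224 without the covariate. Because the macrophage mean itself went with genotype, this fit cannot fully separate genotype from macrophage level. A part of macrophages in the Aqp8 difference was not tested. In whole liver, fewer cells of a type and less RNA per cell cannot be told apart.

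Aqp9, the aquaglyceroporin of the hepatocyte surface, showed little variation. It stood at 11.86, 11.81, 11.79, 11.85 and 11.76 in wild-type replicates 1 to 5 and at 11.76, 11.84, 11.76, 11.76 and 11.78 in double knockout replicates 1 to 5, and the groups overlapped throughout. Its log2 difference was -0.03 (SE 0.04, limma adjusted p = 0.743), with a 95% interval from -0.12 to 0.05. The within-group SD of 0.04 was smaller than that of most probe sets, since only 2.44% of tested probe sets above the guide varied less.

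Aqp11, the aquaporin of the endoplasmic reticulum, had values of 11.49, 11.65, 11.54, 11.42 and 11.41 in wild-type arrays and of 11.49, 11.33, 11.45, 11.24 and 11.17 in double knockout arrays. Double knockout replicates 2, 4 and 5 lay below all wild-type arrays, and the other 2 lay among them. The log2 difference of -0.17 (SE 0.07, 95% interval -0.32 to -0.01) was not called (limma adjusted p = 0.290).

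Aqp1, the water channel of endothelium, bile ducts and red cells, stood at 10.33 to 10.63 in wild-type and 10.34 to 10.59 in double knockout arrays, medians 10.54 and 10.48. The groups covered nearly the same range, with a log2 difference of -0.05 (SE 0.06, 95% interval -0.19 to 0.09, limma adjusted p = 0.781). Of the cells known for this gene, endothelial markers had higher means for 10 of 12 genes (median difference 0.06, list means 9.48 to 9.55 in wild-type and 9.52 to 9.64 in double knockout arrays). Bile duct markers had higher means for 6 of 7 (median 0.04, list means 6.62 to 7.19 and 6.51 to 7.01). Erythroid markers had higher means for 4 of 5 (median 0.10, list means 6.22 to 6.43 and 6.28 to 6.49). These 3 lists had 0 members called by limma, at a background of 0.884%. At an unadjusted p under 0.05 there were 1 endothelial, 0 bile duct and 1 erythroid genes, beside 15.1% of all tested probe sets. Higher means were found for 12276 of all 25335. Endothelial Clec4g went the other way (-0.08, limma adjusted p = 0.376), with all double knockout arrays below all wild-type arrays. Above the background guide lay 12 of 12 endothelial, 5 of 7 bile duct and 2 of 5 erythroid markers. The part of these cell types in the Aqp1 value was not tested.

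The remaining members are best known outside liver and were at low or uncertain levels. Aqp12, the aquaporin of pancreatic acinar cells, stood below the background guide in 9 of 10 arrays, at 6.12, 6.02, 6.02, 6.22 and 6.83 in wild-type and 5.94, 5.88, 5.81, 6.20 and 6.02 in double knockout replicates. Its single high value belonged to wild-type replicate 5, the liver with the most acinar signal, whereas wild-type replicate 4 and double knockout replicates 1 and 2, also high in acinar markers, were at 6.22, 5.94 and 5.88. The log2 difference of -0.27 (SE 0.14, limma adjusted p = 0.389) was -0.12 without wild-type replicate 5 (limma adjusted p = 0.496) and -0.04 without the 4 arrays of high acinar level (limma adjusted p = 0.893). Within the 6 arrays of the lower acinar set, r of Aqp12 with the acinar mean was 0.63 (exact permutation p = 0.235, adjusted 0.469) and rho was 0.77 (exact permutation p = 0.103, adjusted 0.206), and r without the 2 farthest arrays was 0.31. On deviations from the group means r was 0.82 (approximate permutation p = 0.0625, adjusted 0.125) and rho 0.71 (approximate permutation p = 0.136, adjusted 0.272), and r was -0.20 without the 2 farthest arrays. In these 6 arrays all Aqp12 levels lay below the background guide of 6.54, so these values rest on an Aqp12 signal that was not above background. The acinar means also lay below 6.54, but they average 12 markers, and Cpa1 alone stood at 7.05 to 8.06. With Cpa1 in place of the mean, r was 0.72 (exact permutation p = 0.169, adjusted 0.469) and rho 0.94 (exact permutation p = 0.0167, adjusted 0.0667) for Aqp12, and r was -0.31 (exact permutation p = 0.632, adjusted 0.632) and rho -0.20 (exact permutation p = 0.714, adjusted 0.714) for Aqp8. Without the 2 arrays of farthest Cpa1 level, r was 0.80 for Aqp12 and 0.12 for Aqp8. On deviations r with Cpa1 was 0.88 for Aqp12 (approximate permutation p = 0.0319, adjusted 0.125), and 0.29 without the 2 farthest arrays. Its rho was 0.83 (approximate permutation p = 0.0583, adjusted 0.233). For Aqp8 r on deviations was 0.02 (approximate permutation p = 0.964, adjusted 0.969).

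Aqp7, the glycerol channel of adipocytes, stood near the guide, at 6.46 to 6.66 in wild-type and 6.36 to 6.56 in double knockout arrays. Its log2 difference was -0.12 (SE 0.05, 95% interval -0.23 to -0.01, limma adjusted p = 0.281), and 2 double knockout arrays lay below all wild-type arrays. Adipocyte markers had lower means for 4 of 7 genes (median -0.01, list means 7.88 to 8.20 and 7.94 to 8.26), with Car3, a carbonic anhydrase that hepatocytes also express, called lower with -0.75 (SE 0.11, limma adjusted p = 0.00768). In the same list the lipid droplet protein Cidec had 0.58 (limma adjusted p = 0.243) and the fatty acid-binding protein Fabp4 had 0.59 (limma adjusted p = 0.319), neither called. Of these 7 genes 4 lay above the guide, 1 was called and 3 had an unadjusted p under 0.05. Among all tested probe sets 51.5% had lower means, 0.884% were called and 15.1% had an unadjusted p under 0.05. Aqp3, an aquaglyceroporin of skin and kidney, was below the guide on all arrays, at 5.72 to 5.81 in wild-type and 5.73 to 5.89 in double knockout livers, with a difference of 0.04 (SE 0.04, limma adjusted p = 0.780). Aqp4, the water channel of astrocytes and muscle, ranged from 6.51 to 6.88 and from 6.33 to 6.70, with a difference of -0.14 (SE 0.08, limma adjusted p = 0.484), beside skeletal muscle markers with lower means for 5 of 8 genes (median -0.01, list means 5.96 to 6.22 and 6.03 to 6.07, 0 called by limma and 0 at an unadjusted p under 0.05). Only 3 of these 8 muscle markers lay above the guide, and the list means lay below it. Aqp5, the water channel of salivary and lacrimal glands and lung, ranged from 7.59 to 7.70 and from 7.58 to 7.75, with a difference of 0.03 (SE 0.05, limma adjusted p = 0.862). Its level above the guide does not by itself show expression, because levels of different probe sets depend on their probes and were not compared with each other. In all, 6 members had means above the guide (Aqp1, Aqp4, Aqp5, Aqp8, Aqp9 and Aqp11) and 3 did not.

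**Figure D4:**
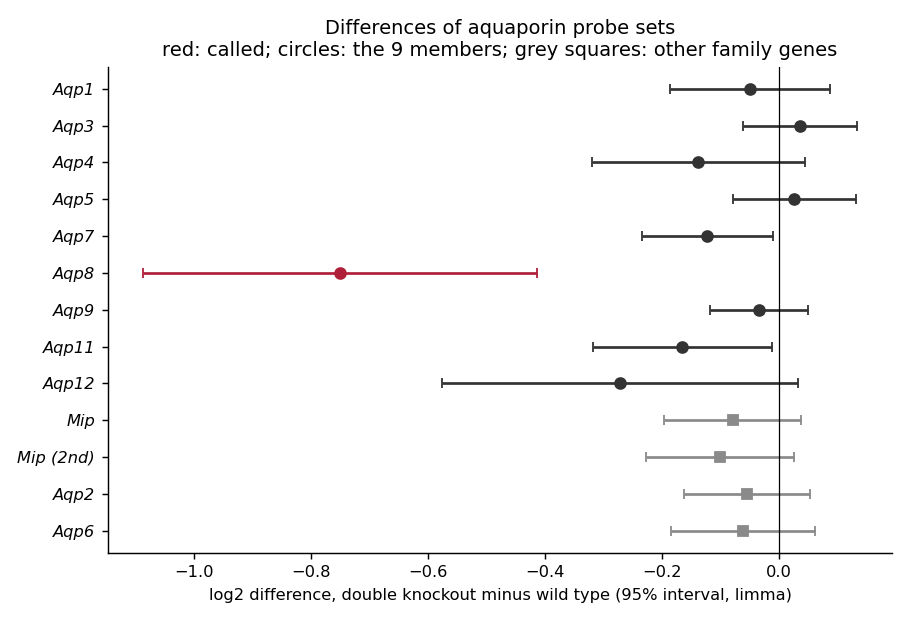
Log2 difference, double knockout minus wild type, with its 95% interval from limma (horizontal axis), for the 9 aquaporin members (circles) and the probe sets of 3 further family genes (grey squares); red marks the called gene. Aqp8, at -0.75, has an interval from -1.09 to -0.41, and the other members lie between -0.27 and 0.04.

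The other genes of the family were examined in the same fit. Mip, the lens aquaporin, had 2 probe sets with differences of -0.08 and -0.10, Aqp2, the vasopressin-controlled channel of the kidney, had -0.05, and Aqp6, a kidney channel, had -0.06. Limma adjusted p for these 4 probe sets lay between 0.454 and 0.668, and the groups overlapped for each. Aqp6, with a mean of 5.46, stood below the background guide. Aqp2, Aqp5 and Aqp6 neighbour each other in the genome, as do Aqp3 and Aqp7, by the RefSeq table of GRCm38.p6, and neither cluster held a called gene.

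Genes that handle the solutes of these channels were followed from lists. In glycerol release and use 0 of 9 measured genes were called by limma (0 higher and 0 lower, 1 with an unadjusted p under 0.05; median difference 0.01). The lowest p belonged to Gpd1l, a glycerol-3-phosphate dehydrogenase-like protein, with -0.13 (limma adjusted p = 0.165), and Pnpla2, the adipose triglyceride lipase, with 0.17 (limma adjusted p = 0.401). The glycerol kinase gene had no named probe set here. In the urea cycle and ammonia or urea transport list 1 of 13 was called, Rhbg, 3 had an unadjusted p under 0.05, and the median difference was -0.05. Over all tested probe sets 0.884% were called and 15.1% had an unadjusted p under 0.05.

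Rhbg, an ammonia transporter of the Rhesus family, stood in wild-type arrays at 9.29, 8.94, 9.07, 9.22 and 9.20 and in double knockout arrays at 10.04, 9.74, 9.74, 9.39 and 9.70. Every double knockout array lay above every wild-type array. The groups did not overlap for 989 of all 25335 tested probe sets, 545 of them in the lower direction. Rhbg rose by 0.58 on the log2 scale (SE 0.10, 1.49-fold, limma adjusted p = 0.0279), beside a background of 0.332% of probe sets called higher. Its call was lost in 6 of the 10 fits without an array (those leaving out wild-type array 2, 3 or 4, or double knockout array 2, 3 or 5), with limma adjusted p up to 0.0775 and differences from 0.50 to 0.66. It was also lost in 5 of 14 other alternatives: all rows tested, the replicate block, the olfactory receptor and macrophage covariates, and the fit without the 4 arrays of high acinar level. Next by p came Glul, glutamine synthetase, which also fixes ammonia, with 0.20 (limma adjusted p = 0.120), not called. The remaining gene of this list with an unadjusted p under 0.05, Slc25a13, went the other way, with -0.15 (limma adjusted p = 0.168), not called. Both are named here after their values were seen.

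Bile flow and canalicular transport had 1 called gene of 12 and 3 with an unadjusted p under 0.05, with a median difference of -0.01. Over all tested probe sets these shares were 0.884% called and 15.1% with an unadjusted p under 0.05. Abcg2, an efflux transporter of the canalicular membrane, fell by 0.25 on the log2 scale (SE 0.04, limma adjusted p = 0.0177). Its levels were 9.32 to 9.41 in wild-type and 9.05 to 9.19 in double knockout arrays, with no overlap, beside 2.15% of all tested probe sets apart in the lower direction. Its call was lost without wild-type replicate 2 or double knockout replicate 4 (limma adjusted p up to 0.0621), and in 4 of 14 other alternatives: the replicate block, the olfactory receptor and macrophage covariates, and the fit without the 4 arrays of high acinar level. In hydrogen peroxide removal 0 of 10 were called by limma (1 at an unadjusted p under 0.05, median -0.01), and the lowest p were those of Prdx4, a peroxiredoxin of the endoplasmic reticulum, with -0.25 (limma adjusted p = 0.0701), and Gpx1, a glutathione peroxidase, with 0.07 (limma adjusted p = 0.442). In the osmotic response list 0 of 8 were called by limma (1 at an unadjusted p under 0.05, median -0.01), with -0.17 for the taurine transporter Slc6a6 (limma adjusted p = 0.199) and 0.07 for the kinase Wnk1 (limma adjusted p = 0.386). Neutrophils are a further source of Aqp9, and their markers had higher means for 4 of 9 genes (median -0.01, list means 5.94 to 6.24 and 6.02 to 6.17), with 0 called by limma and 1 at an unadjusted p under 0.05. Only 4 of these 9 genes lay above the background guide, and the list means lay below it, so they say little about neutrophils.

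**Figure D5:**
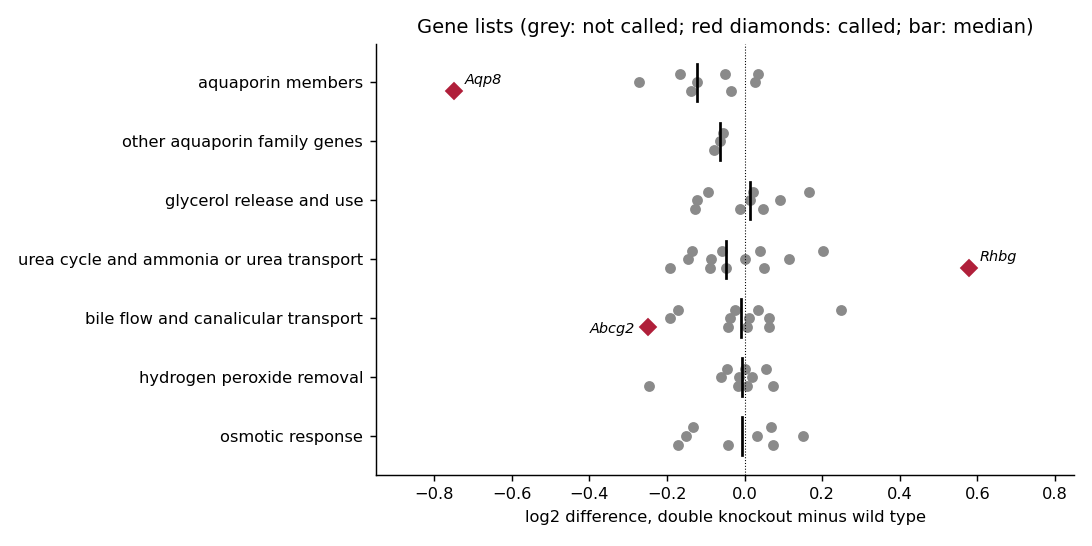
Log2 difference, double knockout minus wild type (horizontal axis), of every measured gene in the aquaporin list and 6 related lists; red diamonds mark called genes and black bars the list medians. Aqp8 (-0.75), Rhbg (0.58) and Abcg2 (-0.25) are the called genes among these lists.

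Finally, genes whose levels varied most like those of each aquaporin above the guide were sought among 11640 genes, by Pearson's r of deviations from the group means over the 10 arrays, which leaves out the genotype difference. With so many genes and so few arrays high values are always found, and they are given as a description. For Aqp8 the nearest were Lasp1 (0.94), Arrdc3 (0.93), BC031181 (0.92), Uba6 (0.92) and Chrm1 (0.92). Their own differences between genotypes lay between -0.10 and 0.19, and 0 of the 5 were called. The largest deviation of Aqp8 was that of wild-type replicate 1, at 10.19 against a group mean of 9.55, so this array weighs heavily in these r values. For Aqp9 the nearest were Bdh1 (0.96), a ketone body enzyme, and Il13ra1 (0.95), and for Aqp11 Accs (0.99) and Il15ra (0.96). For Aqp1 they were Mfng (0.94) and Cry1 (0.91), for Aqp4 Tfam (0.96) and Cyp4a12b (0.96), and for Aqp5 Fignl2 (0.95) and Agfg1 (0.95).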

How the data were processed

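Total RNA of 10 livers was extracted with Trizol, and labelled cDNA was made from 250 ng with the Ambion WT Expression Kit, per the labels' protocols. The deposited log2 levels, 1 per probe set and array, came from Affymetrix Expression Console according to the submitters' processing notes. How that program summarised and normalized them, and its version, are not given here. Quartiles lay within 0.05 of each other on the 10 arrays. Without scanner files or array dates to analyse, no batch could be examined. Precision is limited by the number of arrays.

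Gene names came from the platform annotation, in which 23521 probe sets had 1 symbol, 1814 several and 16010 none. All 25335 with a symbol were fitted in limma 3.58.1 under R 4.3.3 (lmFit, eBayes, two-sided, group as the only term, 8 residual and 3.96 prior degrees of freedom). The main probe set of a gene was that of highest mean. In the lists of related genes, all called genes were named, or otherwise the 2 of lowest p. For cell type lists the called genes were named. Glul, Slc25a13, Cidec, Fabp4 and Clec4g were named in addition, outside this rule. Relations to acinar markers used exact permutation for levels. For deviations from the group means the same permutation ran across genotypes, which makes those p-values approximate. Alternatives were eBayes options, array weights, renormalization, filters, covariates, the replicate block and left-out arrays. Members, lists, tests and naming rules were chosen with earlier results of these data known.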

Additional observations from a re-analysis of the deposited data

Results flagged for a closer look

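In 3 of 36 sets of 5 arrays examined, 1 array stood far from the other 4, where chance gives about 1 in 20. Aqp12 was at 6.83 in wild-type replicate 5, against 6.02 to 6.22 in the other wild-type arrays; this array also had the highest acinar marker mean, 10.04. In double knockout replicate 2, Aqp9 was at 11.84, while the group's other arrays had 11.76 to 11.78. Mip was at 7.17 in wild-type replicate 2, against 7.30 to 7.35.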

How the results depend on the processing

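The Aqp8 call, 1 of the 9 aquaporins, was kept in 9 of 24 other fits, and its sign in all 24. It was lost, leaving 0 aquaporins called, at -0.75 with the robust option (limma adjusted p = 0.0612), with median centring (-0.75, limma adjusted p = 0.0504), with all rows tested (-0.75, limma adjusted p = 0.105), with the olfactory receptor mean as a covariate (-0.88), with the macrophage mean (-0.45, chosen after seeing the data) and without the 4 arrays of high acinar level (-0.87). The replicate block gave -0.75 (limma adjusted p = 0.0693), 0 aquaporins and 76 calls in all. Same-numbered arrays had correlations of deviations from -0.48 to 0.13. Whether they share more than a number is not stated in the labels. These correlations cannot decide it, because differences between single livers also enter them. Without single arrays Aqp8 ranged from -0.84 to -0.59 and the aquaporins called from 0 to 1. At an adjusted p under 0.01, 0 aquaporins were called. Counts over all probe sets were 224 as reported, 64 to 253 without single arrays, 585 at an adjusted p under 0.1, 45 under 0.01, 377 with the filter on low levels, 75 with all rows tested, 53 with the olfactory covariate, 23 with the macrophage covariate, 68 without the 4 arrays and 613 without replicate 1 of both groups. The cause of these shifts was not tested. Of the other members, Aqp1 turned to 0.0047 with the macrophage covariate and Aqp5 to -0.0091 without replicate 1 of both groups; the other 6 kept their signs, and none became called. The r of Aqp8 with acinar markers turned from -0.39 to 0.019 without the 2 farthest arrays. Every member had 1 probe set, so a choice of another could not be tried.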

Other observations

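The protein-coding genes next to Aqp8 by RefSeq order, chosen for their position, were Lcmt1, with a log2 difference of -0.08 (limma adjusted p = 0.660), and Zkscan2, with 0.04 (limma adjusted p = 0.878). Neither was called, and Zkscan2, with a mean of 5.43, stood below the background guide, so its difference is hardly informative. Of genes with a second probe set, Glul had 0.17 on it (limma adjusted p = 0.384) beside 0.20 on the main probe set, and Car3 had -0.61 (limma adjusted p = 0.0364) beside -0.75.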
